A study of Mus musculus with 6 samples.

Results

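The miR-132/miR-212 cluster gives rise to 4 mature miRNA strands, mmu-miR-132-3p, mmu-miR-132-5p, mmu-miR-212-3p and mmu-miR-212-5p, and their loading into the RNA-induced silencing complex (RISC) of the mouse brain was compared between young and old animals. A read sequence was assigned to a strand when its miRNA label was the name of that strand. This gave 4 of the 1101 miRNA labels and 1091 of the 143934 read sequences in the data, and 0 of the 1091 sequences carried a second label. The samples were the cortex combined with the hippocampus of BL6 mice (given as male C57BL/6 J in the methods) that were 2 months (2M, n = 3) or 18 months old (18M, n = 3). No transgene, deletion or agent was named for either age, and each library came from bulk tissue. In Ago-RP-Seq, a peptide from GW182, a natural partner of Argonaute, is used to pull down Ago1-4, and the small RNAs held by these Argonaute proteins, cut from a gel at 19 to 35 nt, are sequenced, so that the reads stand for RISC-bound RNA rather than for all miRNA of the cell. Each library held between 19272046 and 25080484 reads, and its values are in RPM, reads scaled to a common library total.

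Both hairpins are transcribed together. In neurons their transcription is driven by CREB after synaptic activity and neurotrophin signalling, and miR-132 is best known for promoting dendrite growth and spine formation. Each hairpin is cut by Drosha and Dicer into a 5p and a 3p strand, of which Argonaute keeps mainly one as the guide. The guide finds its targets through its seed, which begins at the second base, so that a read that starts 1 base later (a 5′ isomiR) has another seed.

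In the GRCm38.p6 build both hairpins lie on the plus strand of chromosome 11. Mir212 occupies chr11:75173388-75173478 (91 nt) and Mir132 chr11:75173682-75173747 (66 nt), with 203 bases between them. Both fall between exon 1 (chr11:75172560-75172597) and exon 2 (chr11:75173978-75174161) of the non-coding gene 1700016P03Rik, and are thus intronic. The hairpins are shown with the mature strands in capitals (RefSeq, GRCm38.p6, 5′ to 3′), since the ends of the reads are described against them.
Mir132: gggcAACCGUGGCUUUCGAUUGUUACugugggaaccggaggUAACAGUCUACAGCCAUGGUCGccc
Mir212: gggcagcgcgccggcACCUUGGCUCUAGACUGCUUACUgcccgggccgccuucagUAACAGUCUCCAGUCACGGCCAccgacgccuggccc

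The 4 mature strands are shown because their seeds decide which of them can bind the same sites. Capitals mark the seed, bases 2 to 8 (RefSeq, GRCm38.p6).
miR-132-3p (chr11:75173723-75173744): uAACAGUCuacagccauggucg
miR-212-3p (chr11:75173443-75173464): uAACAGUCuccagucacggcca
miR-132-5p (chr11:75173686-75173707): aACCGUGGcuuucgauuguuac
miR-212-5p (chr11:75173403-75173425): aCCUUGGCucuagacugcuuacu
The 3p strands shared the seed AACAGUC and were identical at 17 of 22 positions. The first difference lay at position 10, and all 5 were A10C, C14U, U17C, U20C and G22A, with the base of miR-132-3p first and positions counted from the 5′ end. The 5p strands had different seeds and were identical at 9 of 22 positions from their annotated starts. When miR-132-5p was read from 1 base further in, 14 of 21 positions were identical.

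To ask which strands the RISC of the brain held, the level of each was measured in all 6 libraries. In the RISC of 2M mice miR-132-3p stood at 21455, 22837 and 23149 RPM, and in that of 18M mice at 18398, 19736 and 19622 RPM. It was thus the 9th most abundant miRNA label and made up 2.09% of all reads. miR-132-5p, the other arm of the same hairpin, was measured at 1556, 1625 and 1584 RPM in 2M and at 1318, 1416 and 1326 RPM in 18M. The 3 values of each age lay close together for both arms, and for both the ages did not overlap.

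miR-212-3p, which carries the same seed as miR-132-3p, had 1394, 1196 and 1446 RPM in 2M and 1070, 1096 and 1131 RPM in 18M. The lowest young library was still above the highest old library. miR-212-5p was the rarest strand, with 49.7, 39.9 and 93.4 RPM in 2M and 43.4, 34.7 and 54.0 RPM in 18M. Its ages overlapped, and 2M replicate 3 stood above all other libraries. Its level rested on 813 to 1960 reads a library, against 354717 to 572955 reads for miR-132-3p.

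**Figure D1:**
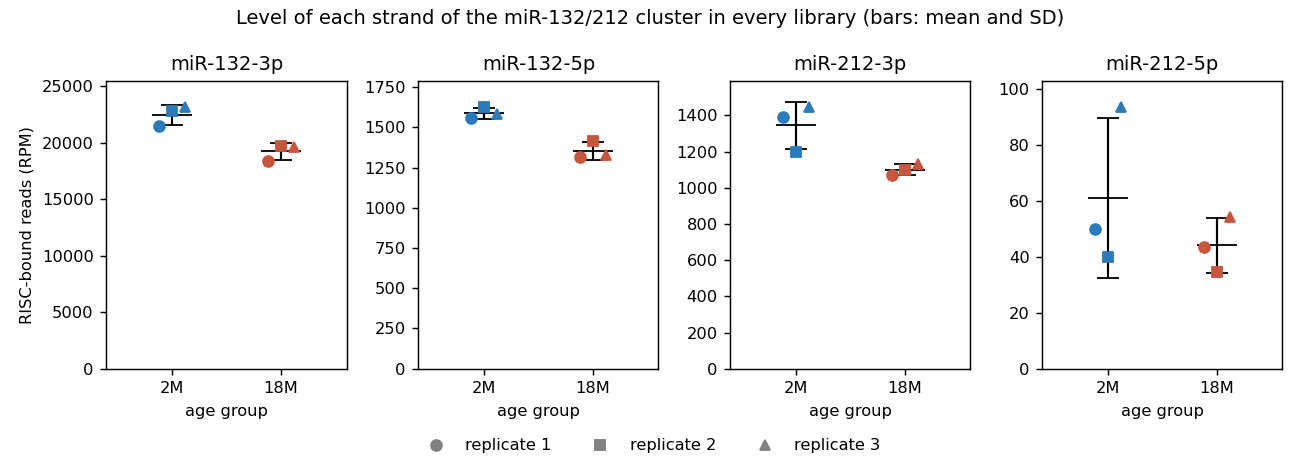
Level of each mature strand (y axis, RPM, starting at 0) by age group (x axis), where each point is a library, its shape gives the replicate number, and the black bars give the mean and SD (n = 3). The 18M points of miR-132-3p, miR-132-5p and miR-212-3p all lie below the 2M points, whereas those of miR-212-5p overlap, with 2M replicate 3 at 93.4 RPM.

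The order miR-132-3p, miR-132-5p, miR-212-3p, miR-212-5p was the same in 6 of 6 libraries. A read covers a whole strand, so these levels were not divided by length. Adapters were ligated to each RNA, and whether different sequences were ligated and amplified alike was not tested. Comparisons between strands are therefore comparisons of reads. miR-132-3p exceeded miR-132-5p by 3.83 ± 0.04 on the log2 scale of RPM (SD, n = 6), which is 13.8 to 14.8 times per library. miR-132-5p exceeded miR-212-3p by 0.27 ± 0.12 and miR-212-3p exceeded miR-212-5p by 4.61 ± 0.39 on the same scale. Each of these 3 steps was tested over the 6 libraries with an exact sign-flip permutation test (two-sided), and each reached p = 0.03125, the smallest that 6 libraries allow. With the 3 comparisons between strands given further on, these made 6 tests, and adjusted for all 6 each p was again 0.03125. The test gives this value whenever all 6 differences share a sign, and the tests were added after the values were seen. The p-values thus only restate that the direction was the same in 6 of 6 libraries, and add no separate support.

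Of the reads of the cluster, which totalled 25475 ± 929 RPM in 2M and 21749 ± 800 RPM in 18M (SD, n = 3), miR-132-3p held 87.7 to 88.9%, miR-132-5p 5.99 to 6.36%, miR-212-3p 4.65 to 5.70% and miR-212-5p 0.155 to 0.356%. The 6mer seed AACAGU (bases 2 to 7) was found in 22663 ± 828 RPM in 2M and in 19404 ± 723 RPM in 18M. Of the reads with this seed, miR-132-3p and miR-212-3p together were 98.3 to 98.4%, and miR-132-3p alone was 92.4 to 93.4%. Reads that a second annotation column placed at the mir-132 hairpin without giving them a miRNA label came to 469 ± 28.4 RPM in 2M and 406 ± 22.6 RPM in 18M, and are not counted in the levels above.

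To ask whether age changed the level of the strands in the RISC, 18M was compared with 2M. miR-132-3p was lower by 14.4% (22480 ± 902 RPM in 2M and 19252 ± 742 RPM in 18M), with a log2 fold change of -0.22 ± 0.09 (SE). miR-132-5p differed by nearly the same ratio, at 1589 ± 34.9 RPM in 2M and 1354 ± 54.5 RPM in 18M (log2 fold change -0.23 ± 0.11, SE). miR-212-3p had 1345 ± 132.02 RPM in 2M and 1099 ± 30.4 RPM in 18M, a log2 fold change of -0.29 ± 0.13 (SE), and miR-212-5p had 61.0 ± 28.5 and 44.0 ± 9.70 RPM, a log2 fold change of -0.39 ± 0.33 (SE). None of these 4 differences passed the test.

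In limma's moderated test over all 474 labels that averaged 10 RPM or more, the Benjamini-Hochberg adjusted p was 0.276 for miR-132-3p, 0.342 for miR-132-5p, 0.302 for miR-212-3p and 0.565 for miR-212-5p. In that fit 4.85% of all labels were called at an adjusted p under 0.05 (21 lower and 2 higher at 18M), and 0 of the 4 strands were. With limma's unadjusted p under 0.05 there was 1 of the 4 strands, miR-132-3p, whose 95% interval ran from -0.45 to -0.0008 on the log2 scale, and 17.9% of all labels reached that level. A lower level at 18M without overlap between the ages was found in 3 of the 4 strands and in 19.2% of all labels. edgeR's quasi-likelihood test and DESeq2 on the recovered reads also called 0 of the 4 strands, where they called 2.95% and 9.73% of all labels.

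The difference depended on the scaling. Over all labels the median log2 fold change was -0.07, and 294 of 474 labels were lower at 18M. When the libraries were scaled by the median of ratios over labels in place of the total, miR-132-3p was 20492, 22352 and 22410 in 2M and 18816, 21646 and 19329 in 18M in scaled RPM. The ages then overlapped for 4 of the 4 strands. For miR-132-3p, miR-132-5p and miR-212-3p it was 18M replicate 2 that reached into the range of 2M, and the log2 fold changes became -0.12, -0.13, -0.19 and -0.29 in the order given above, and 12.9% of all labels were lower without overlap. In bulk tissue fewer cells of a type and less RNA per cell cannot be told apart.

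**Figure D2:**
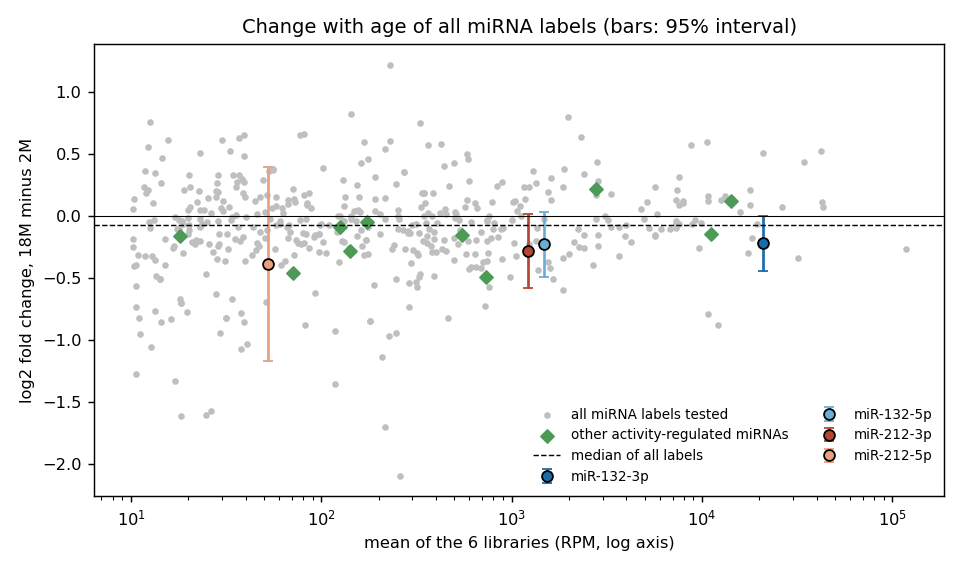
Log2 fold change from 2M to 18M (y axis) of all 474 miRNA labels tested against their mean level (x axis, RPM, log axis), with the 4 strands as large circles (bars: 95% interval from limma) and 10 other activity-regulated miRNAs as diamonds. The strands lie at -0.22 to -0.39, below the dashed line, the median of all labels at -0.07, and well within the cloud of the other labels.

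The balance of the strands did not differ between the ages by more than the spread of the libraries. The ratio of miR-132-3p to miR-132-5p was 13.8, 14.0 and 14.6 in 2M and 14.0, 13.9 and 14.8 in 18M. The difference between the ages was 0.01 on the log2 scale, and single old and young libraries differed by between -0.07 and 0.10 (exact permutation test, p = 0.7). The ratio of miR-212-3p to miR-212-5p ran more widely, at 28.0, 30.0 and 15.5 in 2M and 24.7, 31.6 and 20.9 in 18M (log2 difference 0.11, exact permutation p = 0.8). Replicate 3 was lowest within both ages.

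Between the hairpins, miR-132-3p was 15.4, 19.1 and 16.0 times as abundant as miR-212-3p in 2M and 17.2, 18.0 and 17.4 times in 18M (log2 difference 0.06, exact permutation p = 0.5). For the 5p strands of miR-132 and miR-212 the ratio was 17.0 to 40.9 over the libraries (log2 difference between the ages 0.16, exact permutation p = 0.8). In reads, the arms of miR-132 were less unequal: the log2 ratio of 3p to 5p was greater for miR-212 in 6 of 6 libraries. The difference was 0.78 ± 0.42 (SD, n = 6, exact sign-flip permutation p = 0.03125) and ran from 0.08 to 1.18 over the libraries. Among 255 hairpins with both arms, the ratio of the stronger to the weaker arm was higher than that of miR-132 in 153 and higher than that of miR-212 in 131.

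The strands were not single sequences. miR-132-3p was made up of 642 read sequences, miR-132-5p of 135, miR-212-3p of 289 and miR-212-5p of 25. The most abundant read is shown for each, with the variants on which the next paragraphs turn, as sequenced (5′ to 3′, T for U), and capitals mark bases 2 to 8.
miR-132-3p, most abundant read: tAACAGTCtacagccatggtcg
miR-132-3p, with an added T: tAACAGTCtacagccatggtcgt
miR-132-3p, start 1 base later: aACAGTCTacagccatggtcg
miR-132-3p, start 2 bases later with an added T: aCAGTCTAcagccatggtcgt
miR-212-3p, most abundant read: tAACAGTCtccagtcacggcca
miR-212-3p, with an added T: tAACAGTCtccagtcacggccat
miR-132-5p, most abundant read: aCCGTGGCtttcgattgttact
miR-132-5p, annotated start: aACCGTGGctttcgattgtta
miR-132-5p, annotated start, 1 base shorter: aACCGTGGctttcgattgtt
miR-212-5p, most abundant read: aCCTTGGCtctagactgcttact

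miR-132-5p was mostly a 5′ isomiR. Its most abundant read began 1 base after the RefSeq start and ended 1 base after the RefSeq end. It held 779 RPM, or 52.9% of the strand, as the mean of 6 libraries. All reads with this start together made up 65.4, 69.0 and 67.6% of the strand in 2M and 62.7, 69.0 and 63.0% in 18M, and those with the annotated start 33.6, 30.1 and 31.5% in 2M and 36.4, 30.2 and 36.1% in 18M. The later start was the major one in 6 of 6 libraries, and the ages overlapped. The shift turns the 6mer seed ACCGUG into CCGUGG. It also brings the read into the register in which more positions of the 5p strands are identical than from the annotated starts (14 of 21 against 9 of 22), although their 6mer seeds, CCGUGG and CCUUGG, remain different.

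The start and the end of miR-132-5p went together. Among reads that match the hairpin throughout, those with the later start ended at the base after the RefSeq end in 82.2% (78.6 to 86.3% over the libraries). Those with the annotated start ended there in 3.02% (2.51 to 3.75%), and mostly stopped 1 base (43.9%) or 2 bases (35.7%) before the RefSeq end. Thus 2 sets of reads, offset at both ends, made up the strand. In miR-132-3p the RefSeq end was reached by 90.7% of reads with the annotated start and by 92.4% of those that began 1 base later. Of its few matching reads that began 2 bases later (52.8 RPM) 70.7% ended there, and 24.2% (20.3 to 27.5%) ended 1 base further on, against 1.17% of those that began 1 base later.

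**Figure D3:**
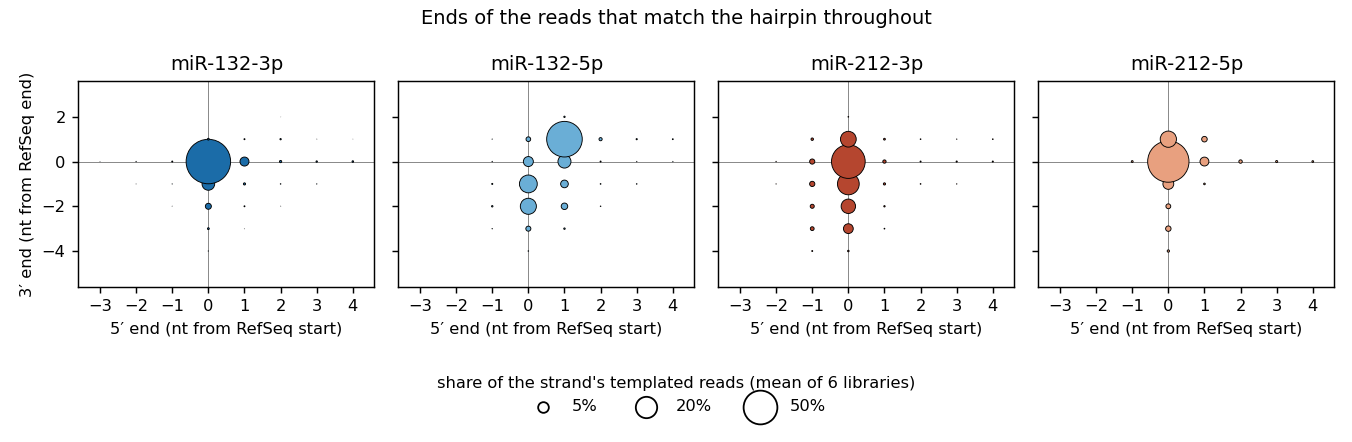
Start (x axis) and end (y axis) of the reads that match the hairpin throughout, in nt from the RefSeq start and end of each strand, with the area of a circle giving its share of the strand's matching reads (mean of 6 libraries). For miR-132-5p the largest circle lies 1 base to the right and 1 base above the annotated ends and a second set lies below the line at the annotated start, while the other 3 strands centre on the annotated ends.

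The other strands held to their annotated starts. miR-132-3p began there in 94.0% of reads, miR-212-3p in 95.01% and miR-212-5p in 94.0%, as means of 6 libraries. Of miR-132-3p, 3.92% began 1 base later (seed ACAGUC) and 1.22% began 2 bases later (CAGUCU). Of miR-212-3p 3.62% began 1 base earlier (UAACAG). Reads with another seed than that of the most abundant read made up 33.9% of miR-132-5p, and 51 of the 474 labels had a higher share (median of all labels 3.93%). For miR-132-3p, miR-212-5p and miR-212-3p the shares were 6.40, 6.09 and 5.33%, with 189, 197 and 210 labels above them.

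In abundance these rare starts were not small. The reads of miR-132-3p that began 1 base later came to 819 RPM, above all reads of miR-132-5p with the annotated start (483 RPM) and above miR-212-5p as a whole (52.5 RPM). They were below the reads of miR-132-5p with its main, later start (975 RPM). The most abundant miR-132-3p read that began 1 base later, 21 nt long, was measured at 621, 668 and 709 RPM in 2M and at 505, 545 and 550 RPM in 18M. The ages did not overlap, and the log2 fold change was -0.32 ± 0.14 (SE; limma adjusted p = 0.395).

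At the 3′ end the 3p strands carried bases that the hairpin does not hold. Such tails, known to be added by terminal nucleotidyl transferases, were found on 17.0 to 19.5% of miR-132-3p reads and on 31.2 to 33.9% of miR-212-3p reads. Tails were rare on the 5p strands, at 2.67 to 3.57% of miR-132-5p and 2.65 to 3.97% of miR-212-5p. In miR-212-3p the tailed share was higher than in miR-132-3p in 6 of 6 libraries, by 14.4 ± 1.43 percentage points (SD, n = 6; exact sign-flip permutation p = 0.03125).

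Most tails of the 3p strands were made of a single kind of base. In miR-132-3p 11.1% of reads ended in added T alone and 6.01% in added A alone, and in miR-212-3p these were 16.9% and 11.2%. Tails of 2 or more bases were found on 1.95% of miR-132-3p reads and on 9.81% of miR-212-3p reads. On miR-132-5p added A (2.07%) was more frequent than added T (0.736%), whereas on miR-212-5p added T (2.38%) was the more frequent. A last base is assigned to the hairpin where both agree, so an added base equal to the next base of the hairpin is not counted as a tail.

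Tailing differed with the start of the read. Of the miR-132-3p reads with the annotated start 17.4% had a tail (16.3 to 18.7% over the libraries), and of those that began 1 base later 19.9%. Of those that began 2 bases later 78.7% had one (74.0 to 80.5%), and in 76.4% the tail began with T. The read that led this group was 21 nt long and had 145 RPM (115 to 180 RPM over the libraries). It matched no GENCODE M21 transcript in full, whereas the most abundant read of miR-132-3p matched Mir132 alone. This group was picked after its values were seen, and another place in the genome as the source of these reads was not tested.

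**Figure D4:**
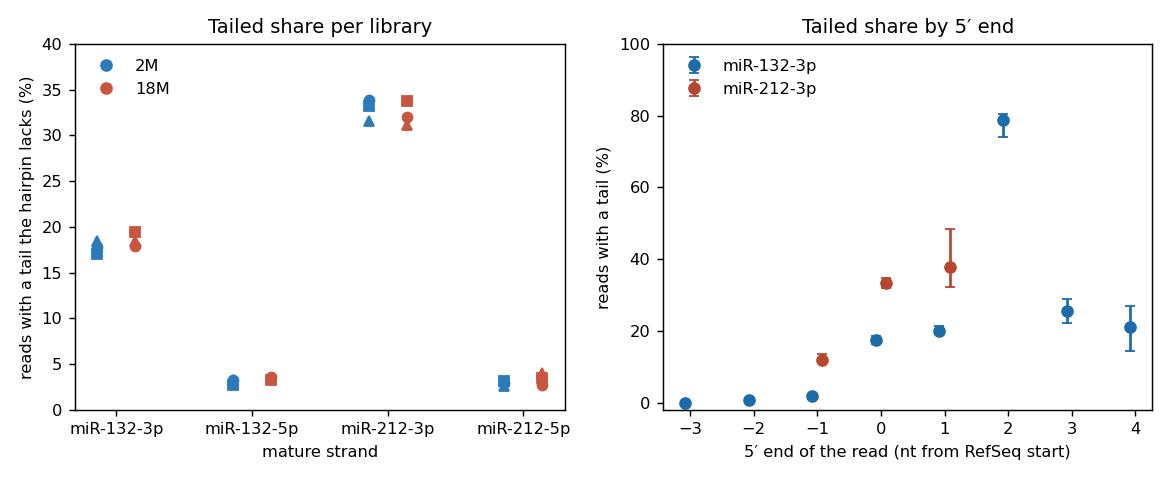
Left, percent of each strand's reads with a 3′ tail that the hairpin lacks (y axis) in every library, with colour for age and shape for replicate (circle 1, square 2, triangle 3); right, the tailed percent of the 3p strands by the start of the read in nt from the RefSeq start (points: mean of 6 libraries; bars: lowest and highest library). The points of miR-212-3p lie at 31.2 to 33.9% and those of miR-132-3p at 17.0 to 19.5%, and the miR-132-3p reads that start 2 bases later stand out at 78.7%.

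The most abundant read held 70.0% of miR-132-3p, and only 49 of 474 labels were more uniform. It held 72.3% of miR-212-5p (36 labels higher) and 33.0% of miR-212-3p (370 labels higher; median of all labels 45.1%). The share in miR-132-3p was above that in miR-212-3p in 6 of 6 libraries, by 37.0 ± 2.26 percentage points (SD, n = 6; exact sign-flip permutation p = 0.03125). For miR-212-5p, the strand with the fewest reads, the 95% Wilson interval of this share was 72.7 to 78.6% in 18M replicate 2, the highest library (616 of 813 reads). In 18M replicate 3, the lowest, it was 64.6 to 69.9% (796 of 1183 reads). The intervals cover counting error only, and these libraries differed by more than that.

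To ask whether the ends changed with age, 20 measures per library (the 4 ratios above and, for each strand, the share with another start, the share of the most abundant read, the tailed share and the mean length) were compared. The ages did not overlap in 3. The share of miR-132-3p with another start than its most abundant read was 6.05, 6.02 and 6.35% in 2M and 5.904, 5.997 and 5.902% in 18M. The tailed share of miR-132-5p was 3.22, 2.67 and 3.21% in 2M and 3.57, 3.29 and 3.50% in 18M. The mean length of miR-212-3p was 21.998, 21.967 and 21.989 nt in 2M and 22.012, 22.051 and 22.016 nt in 18M. All 3 had an exact permutation p of 0.1, the smallest that 3 against 3 libraries can give, and an adjusted p of 0.667 over the 20 measures, so none passed.

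The tailed share of miR-132-3p was 17.8 ± 0.703% in 2M and 18.6 ± 0.828% in 18M, and single old and young libraries differed by -0.555 to 2.47 percentage points (exact permutation p = 0.3). That of miR-212-3p was 32.9 ± 1.19% and 32.3 ± 1.34% (exact permutation p = 0.7). In miR-132-5p the share with another start than the main one was 32.7 ± 1.84% in 2M and 35.1 ± 3.56% in 18M, and single libraries differed by -3.62 to 6.32 percentage points (exact permutation p = 0.3).

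The read sequences were also tested one by one. Of the 1091 sequences of the cluster, 59 averaged 10 RPM or more: 35 of miR-132-3p, 10 of miR-132-5p, 13 of miR-212-3p and 1 of miR-212-5p. These held 98.2, 95.7, 85.8 and 72.3% of their strands. In limma over all 3281 such sequences 0.366% of all were called, and 0 of the 59 were. At limma's unadjusted p under 0.05 there were 3 of the 59, and 428 of the 3281. 53 of the 59 were lower at 18M, as were 1559 of the 3281 sequences of any RNA type. Their median log2 fold change was -0.21, against 0.02 over all sequences tested. The reads of a strand make up its level, so counts of them are not independent and repeat the direction of the strands. Lower without overlap were 18 of the 59 (9 of miR-132-3p, 1 of miR-132-5p and 8 of miR-212-3p), and 9.45% of all sequences.

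The most abundant read of miR-132-3p was measured at 15102, 16197 and 16158 RPM in 2M and at 12750, 13531 and 13889 RPM in 18M. The ages were separate, and the log2 fold change was -0.24 ± 0.11 (SE; limma adjusted p = 0.385). The same read with an added T had 1802, 1994 and 1972 RPM in 2M and 1522, 1849 and 1765 RPM in 18M, and here the ages overlapped (log2 fold change -0.17 ± 0.14, SE; limma adjusted p = 0.611). With an added A it stood at 729 ± 86.8 RPM in 2M and 671 ± 74.3 RPM in 18M, and 1 base shorter at 1237 ± 28.5 and 1123 ± 137 RPM (SD, n = 3).

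For miR-212-3p all 13 sequences tested were lower at 18M. Its most abundant read had 469, 351 and 497 RPM in 2M and 354, 354 and 393 RPM in 18M, and 2M replicate 2 was the lowest of all. The read 1 base shorter did not overlap between the ages, at 178, 184 and 201 RPM in 2M and 142, 152 and 152 RPM in 18M (log2 fold change -0.33 ± 0.14, SE; limma adjusted p = 0.384). The read 2 bases shorter went from 82.0 ± 6.32 to 65.5 ± 1.57 RPM, the read with an added T from 117 ± 19.9 to 104 ± 8.71 RPM, and the read 1 base longer from 90.2 ± 9.09 to 86.1 ± 4.75 RPM (SD, n = 3).

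Both sets of miR-132-5p reads were followed. The most abundant read, of the later start, had 786, 861 and 901 RPM in 2M and 644, 808 and 673 RPM in 18M, with overlap between 2M replicate 1 and 18M replicate 2. Of the annotated start, the 21 nt read was 198 ± 24.5 RPM in 2M and 192 ± 17.2 RPM in 18M, while the 20 nt read was 170, 178 and 180 RPM in 2M and 141, 145 and 138 RPM in 18M (SD, n = 3). Among the 5 most abundant reads of miR-132-5p, only this 20 nt read had separate ages (log2 fold change -0.32 ± 0.14, SE; limma adjusted p = 0.385). The most abundant read of miR-212-5p was measured at 36.2, 28.5 and 69.3 RPM in 2M and at 31.3, 26.3 and 36.4 RPM in 18M, with overlap (limma adjusted p = 0.586).

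Each 6mer seed has been assigned a viability, the percent of cells that survive when an siRNA with that seed is introduced, averaged by the authors over 3 mouse cell lines. The value was 63.1% for the shared seed AACAGU, 59.8% for ACCGUG and 49.4% for CCUUGG. The later start of miR-132-5p has a lower one, 45.2%, and so does that of miR-132-3p, 29.1% for ACAGUC. Weighted by reads, miR-132-5p averaged 49.5 to 50.4%, miR-132-3p 61.4 to 61.5%, miR-212-3p 62.9 to 63.0% and miR-212-5p 47.7 to 48.1% over the libraries. For the cluster as a whole it was 60.8 ± 0.0499% in 2M and 60.9 ± 0.0570% in 18M (SD, n = 3; difference 0.0725 points, exact permutation p = 0.2), and for all reads of the libraries 58.0 ± 0.105% and 57.7 ± 0.249%. For all reads the ages did not overlap, and the difference was -0.341 points (exact permutation p = 0.1, the smallest that 3 against 3 libraries can give).

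Across the 6 libraries, the label whose log2 level ran most like that of miR-132-3p was miR-151-3p (Pearson's r = 0.99). miR-467c-5p (0.96), miR-412-5p (0.96), miR-132-5p (0.95, rank 4 of 473), miR-323-3p (0.95) and miR-6540-5p (0.94) followed. miR-212-3p came at rank 49 (0.79) and miR-212-5p at rank 142 (0.49). These are descriptions over 6 points that fall into 2 ages and share each library's scaling. With median-of-ratios scaling the r with miR-132-3p was 0.93 for miR-132-5p, 0.62 for miR-212-3p and 0.20 for miR-212-5p. For the other labels named it was then 0.90 (miR-151-3p), 0.82 (miR-467c-5p), 0.78 (miR-412-5p), 0.92 (miR-323-3p) and 0.83 (miR-6540-5p). All of these lay below miR-132-5p, so the order among the labels named depended on the scaling. Of the 5 labels outside the cluster, miR-412-5p (log2 fold change -1.03) and miR-467c-5p (-0.82) passed limma's test (adjusted p = 0.0314 and 0.0412), where 4.85% of all labels did. The 5 were picked for their likeness to miR-132-3p in these same libraries. The choice thus favours labels that are lower at 18M, and their tests are not independent of it. With each library left out in turn, limma's adjusted p was 0.0752 to 0.164 for miR-467c-5p, and for miR-412-5p it was 0.0470 without 18M replicate 2 and 0.0702 to 0.107 without any other library. Both calls were lost with the replicate number as a block (limma adjusted p = 0.133 for miR-412-5p and 0.163 for miR-467c-5p), and that of miR-467c-5p also with median-of-ratios scaling (limma, 0.0729) and in edgeR (0.0688).

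A list of 10 other miRNAs known to respond to neuronal activity was set beside the cluster. In limma 8 of the 10 were lower and 2 higher at 18M, where 62.0% of all labels were lower. Of the 10, 3 had an unadjusted p under 0.05 (17.9% of all labels) and 0 passed the adjusted test (4.85% of all labels). The median log2 fold change of the 10 was -0.15, against -0.07 for all labels. Of the 4 most abundant, miR-138-5p, which restrains spine growth, was 13652 ± 868 RPM in 2M and 14889 ± 1951 RPM in 18M. miR-181a-5p, which targets an AMPA receptor subunit, was 11697 ± 547 and 10563 ± 137 RPM, with separate ages (limma adjusted p = 0.456). miR-182-5p was 2489 ± 120 and 3062 ± 1339 RPM, of which 18M replicate 2 alone reached 4583 RPM, and without that library its log2 fold change turned from 0.21 to -0.12. miR-379-5p, of the large imprinted miRNA cluster, was 858 ± 133 and 604 ± 42.6 RPM, with separate ages (log2 fold change -0.50 ± 0.15, SE; limma adjusted p = 0.146).

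The tissue was checked by miRNAs that mark brain cell types, none of which was at 0 in any library. The 5 neuron miRNAs, led by miR-124-3p at 92539 to 134320 RPM, summed to 180495 to 202789 RPM in 2M and to 161395 to 202615 RPM in 18M, and 0 of 5 passed limma's test. The 6 miRNAs of microglia and other immune cells summed to 3776 to 4111 RPM in 2M and to 2834 to 3402 RPM in 18M without overlap. miR-150-5p made up most of this sum (3023 ± 149 RPM in 2M and 2294 ± 198 RPM in 18M), and of the 5 tested 3 were lower and 2, miR-146a-5p (log2 fold change 0.19) and miR-223-3p (0.03), were higher at 18M, with 0 passing limma's test. The 4 erythrocyte miRNAs summed to 2550 to 3689 and 1307 to 2892 RPM, the 3 of oligodendrocytes to 6659 to 13932 and 7556 to 11213 RPM, and the 2 of endothelium to 6007 to 10552 and 5813 to 8709 RPM. Lower at 18M were also the 3 erythrocyte miRNAs tested, the 2 of endothelium and 2 of the 3 of oligodendrocytes, with 0 passing limma's test. Of the 5 neuron miRNAs miR-124-3p was lower (log2 fold change -0.27) and 4 were higher. Of these sums, only that of the immune miRNAs did not overlap between the ages. The part of any cell type in the cluster's difference was not tested.

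Under each of the other settings tried, the log2 fold change of each strand that could be fitted was below 0 and had an adjusted p above 0.05. The change in miR-212-5p rested on 2M replicate 3. Without that library its log2 fold change was -0.04, and without 2M replicate 2 it was -0.64. For miR-132-3p leaving out a library gave -0.26 to -0.19.

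**Figure D5:**
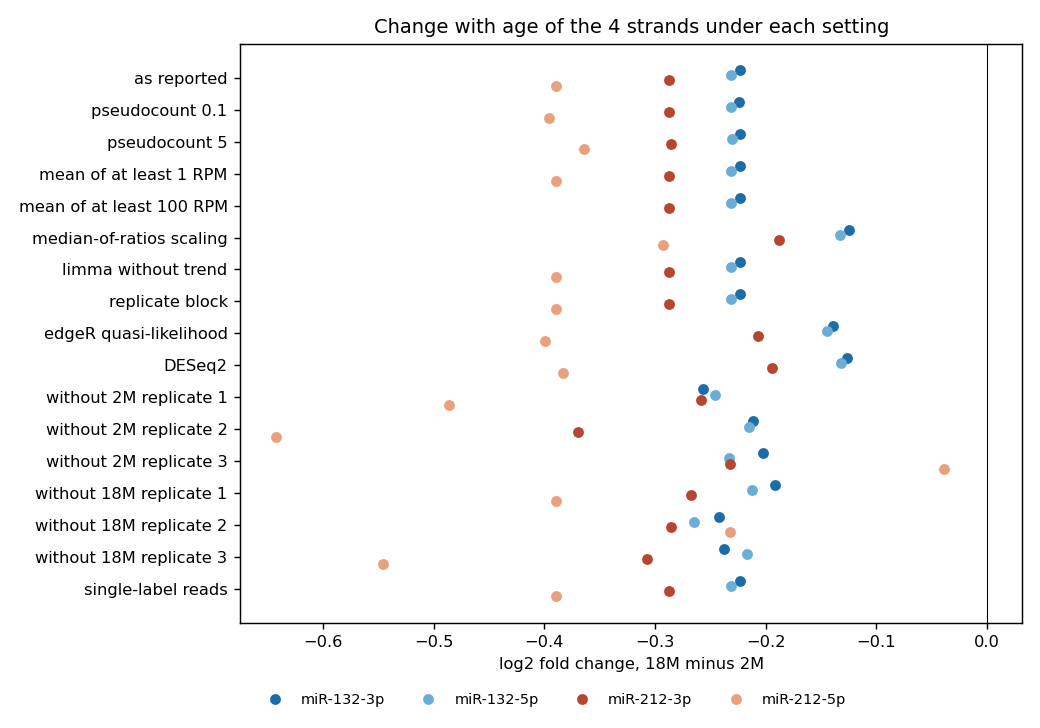
Log2 fold change from 2M to 18M (x axis) of the 4 strands under each setting (y axis): as reported, with other pseudocounts, filters, scaling, tests or read sets, and with each library left out. All points lie left of 0; those of miR-132-3p lie between -0.26 and -0.12, and that of miR-212-5p moves to -0.04 without 2M replicate 3 (no value with a mean of at least 100 RPM).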

How the data were processed

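RISC-bound small RNAs of 6 mouse brain samples were sequenced on an Illumina HiSeq instrument. As the methods describe, the authors trimmed the reads (the submitters' processing notes name Trim Galore, version not stated), collapsed identical reads, removed rare ones, compared the rest with mouse small RNA collections in the SPOROS pipeline and gave each library the same total. Aligner settings and a genome build for the miRNA labels were not given in the sources used here. The deposited values are RPM per read sequence, beside a deposited seed viability score, the authors' mean over cell lines, and a deposited overall score column, which was not used.

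The RPM values of a library were multiples of a fixed step (100% whole to within 0.02 steps), so whole reads were recovered. The 2M libraries held 20983547, 25080484 and 20977694 reads, and the 18M libraries 19272046, 23447783 and 21884738, which puts a floor of 3 reads at 0.120 to 0.156 RPM. Reads carry no molecular identifiers, so intervals cover counting error only. No pair of replicates was a duplicate (chi-square per degree of freedom at least 435 over 474 labels).

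Groups and replicate numbers came from the sample titles. RPM was summed per miRNA label, and a read counted for each of its labels. Labels and read sequences that averaged 10 RPM or more were tested with limma 3.58.1 (lmFit and trended eBayes; R 4.3.3) on log2(RPM + 1). P-values were adjusted by Benjamini-Hochberg over every feature tested, and 0.05 was the threshold. This scale understates the fold changes of low features. The scripts were tested on simulated data. Measures per library were compared with two-sided exact permutation tests, and p-values measure the spread between these 3 and 3 samples. Reads were placed on the RefSeq hairpins by their first 18 bases, with at most 3 mismatches and a tail of at most 4 bases (1076 of the 1091 sequences were placed).

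Other settings tried were a pseudocount of 0.1 or 5, a minimum average of 1 or 100 RPM, scaling by the median of ratios, limma with no trend, the replicate number as a block, single-label reads, each library left out in turn, and, on the recovered reads, edgeR 4.0.16 (quasi-likelihood, TMM) and DESeq2 1.42.0. On recovered reads edgeR called 14 labels and 9 read sequences and DESeq2 46 and 151, against 23 and 12 by limma. Named read sequences were up to 5 per strand by mean RPM, other labels the 5 most correlated with miR-132-3p, and activity-regulated miRNAs the 4 most abundant of a list. The sign-flip tests between strands and the groups by read start were added after values were seen. The members and lists were chosen with earlier results of these data known. Python 3.11.15 was used with pandas 2.3.3, numpy 2.4.6 and scipy 1.17.1, and plots were drawn with matplotlib 3.10.9.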

Additional observations from a re-analysis of the deposited data

How the results depend on the processing

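The log2 fold changes of the 4 strands kept their sign, with an adjusted p above 0.05, in 39 of 39 values from other pseudocounts, filters, scalings, tests and read sets. They were -0.22 to -0.12 for miR-132-3p (adjusted p 0.276 to 0.653), -0.23 to -0.13 for miR-132-5p (0.300 to 0.669), -0.29 to -0.19 for miR-212-3p (0.282 to 0.527) and -0.40 to -0.29 for miR-212-5p (0.391 to 0.679). miR-212-5p has no value under the minimum of 100 RPM, which it does not reach. With a library left out they were -0.26 to -0.19, -0.26 to -0.21, -0.37 to -0.23 and -0.64 to -0.04.

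The number of labels called, 23, was 2 under a minimum of 100 RPM, 14 after scaling by the median of ratios, 15 in limma with no trend, 14 by edgeR, 46 by DESeq2, 15 with single-label reads and 0 to 15 with a library left out. The number of read sequences called, 12, was 20 under a minimum of 1 RPM, 0 under one of 100 RPM, 151 by DESeq2 and 0 to 0 with a library left out, and the cause of these moves was not tested.

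With the replicate number as a block, limma called 1 label and 0 read sequences. Samples with the same number did not deviate together (r = -0.17, -0.22 and -0.10), so they were treated as unpaired. With 3 libraries per age this check cannot exclude that samples with the same number were prepared together. The block changed no call of a strand.

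Small differences with age turned their sign with a library left out. On the log2 scale the range was -0.12 to 0.46 for miR-182-5p, which turned without 18M replicate 2, -0.132 to 0.0468 and -0.21 to 0.16 for the 21 and 22 nt reads of miR-132-5p with the annotated start, -0.0205 to 0.0313 for the ratio of miR-132-3p to miR-132-5p, -0.19 to 0.28 for that of miR-212-3p to miR-212-5p and -0.19 to 0.44 for that of the 5p strands. In percentage points it was -3.67 to 0.461 (miR-132-5p), -0.598 to 1.90 (miR-212-3p) and -3.12 to 1.12 (miR-212-5p) for the share of the most abundant read, -0.188 to 0.161 (miR-212-3p) and -0.902 to 0.360 (miR-212-5p) for the share with another start, and -1.28 to 0.0299 for the tailed share of miR-212-3p. For the mean length it was -0.00129 to 0.0185 nt (miR-132-3p), -0.0282 to 0.0162 nt (miR-132-5p) and -0.0284 to 0.0408 nt (miR-212-5p).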
